A study of Saccharomyces cerevisiae with 11 samples.

Results

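The comparison described here sets the end of a near-zero-growth culture against its starting point: the retentostat on day 20 (2 arrays, 1 from each of 2 cultures) against the anaerobic chemostat (3 arrays from 3 independent cultures), which together make 5 of the 11 arrays of the series. The arrays were taken by their labelled groups, and the genes were all those with a probe set annotated to exactly 1 gene. Of 9335 probe sets on the array, 6504 met that rule and stood for 5656 genes, of which 5577 had a signal above the floor of 12 on at least 1 array and were tested. All cultures were a Saccharomyces cerevisiae strain that lacks RIM15 (IMK313, a rim15 deletion in the prototrophic laboratory background CEN.PK113-7D), grown anaerobically with glucose as the limiting nutrient, so that by the labels both groups carry the deletion. Probe set 3982_at, for which the annotation used here names no gene, gave 0.5 to 0.6 on the 3 chemostat arrays and 5754 and 6264 on day 20. What it reads was not analysed here, and whether both groups are the same isolate of the strain was not tested. The chemostat ran at a dilution rate of 0.025 per h. The retentostats began as such chemostats, and their outflow was then led through a filter that kept the cells in the vessel. The model is limited to 1 deletion strain, and the wild type was not analysed here. Signals of a gene are given in the order chemostat cultures 1, 2 and 3, then day 20 cultures 1 and 2.

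Rim15 is a protein kinase that is held back by glucose and nutrient signalling through protein kinase A, TORC1 and Sch9. When these signals fall it phosphorylates the endosulfines Igo1 and Igo2, which inhibit a form of protein phosphatase 2A, and it acts on the stress and post-diauxic transcription factors Msn2, Msn4 and Gis1. In wild-type yeast this route serves the entry into quiescence, the resting state with stored glycogen and trehalose, high stress resistance and arrest before DNA replication.

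The RIM15 signals were 10.7, 3.8 and 3 on the chemostat arrays and 2.7 and 1.1 on the day 20 arrays, all under the floor. Where its probes lie relative to the deleted stretch was not analysed here. Without a wild-type array for comparison, these values cannot check the deletion. The deposited signals had been scaled to 1 trimmed mean per array, equal within 0.0311%, so that every difference is relative to the total signal of its array. A change in the RNA content of all cells, or in the share of cells that were still alive and transcribing, cannot be told apart from a change per cell in such values. The median gene nevertheless had a log2 difference of 0.36 between day 20 and the chemostat, and group differences are read against this shift. With quantile scaling the median was 0.03 and with median scaling -0.03. The 3′ to 5′ signal ratio of the control transcript ACT1, a sign of RNA integrity, was 0.966, 1.31 and 1.21 on the chemostat arrays, 1.62 on the day 20 array of culture 1 and 31.8 on that of culture 2. The ratio was also high on the arrays of culture 2 on days 9 and 16 (27.0 and 217.2). Without these 3 arrays the comparison gave 301 calls, of which 246 were among the calls described next. Markers of haploid a cells had summed signals of 15262 to 17761 in the chemostat and 15413 and 18484 on day 20, with 7 of 7 above the floor on these 5 arrays. Of 6 anaerobic markers, all above the floor, the summed signal was 26675 to 28185 in the chemostat and 17477 and 17124 on day 20.

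A total of 753 of the 5577 genes, 13.5%, differed between day 20 and the chemostat at a limma adjusted p under 0.05. Of these, 585 (10.5% of all genes) were higher and 168 (3.01%) were lower on day 20. These shares are the background against which the counts of each gene group are read. The direction of the calls depended on the scaling: 77.7% of the calls were higher with the deposited scaling, 47.2% with quantile scaling (199 higher, 223 lower) and 38.2% with median scaling (191 higher, 309 lower), while no gene called in the deposited values was called the opposite way with either. With 2 arrays against 3 an exact two-sided permutation test of a single gene cannot go below p = 0.2, so the calls rest on the spread that limma pools over genes and over all 11 arrays.

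Taken singly, the day 20 arrays gave the same sign of difference from the chemostat mean for 4738 genes (84.96%). The median difference was 0.33 in culture 1 and 0.39 in culture 2, and the median distance between the cultures was 0.247. In culture 1, 782 genes were over 1 log2 unit above the chemostat mean and 207 were over 1 unit below it. In culture 2 these counts were 1040 and 335, and 592 and 170 genes were shared by both. All 753 called genes had both day 20 arrays beyond all 3 chemostat arrays, as did 49.8% of all genes above and 14.5% below. The number of calls was lower without any 1 of the 5 arrays: it was 267, 317 and 288 without chemostat 1, 2 and 3, 214 without culture 1 and 50 without culture 2 on day 20. A set of 48 genes, 31 higher and 17 lower, passed in all 5 of these fits, and 47 of them passed also when the 3 arrays with a high ACT1 ratio were all left out. These 48 are called the leave-one-out set here, and every other called gene lost its call without at least 1 of the 5 arrays.

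**Figure D1:**
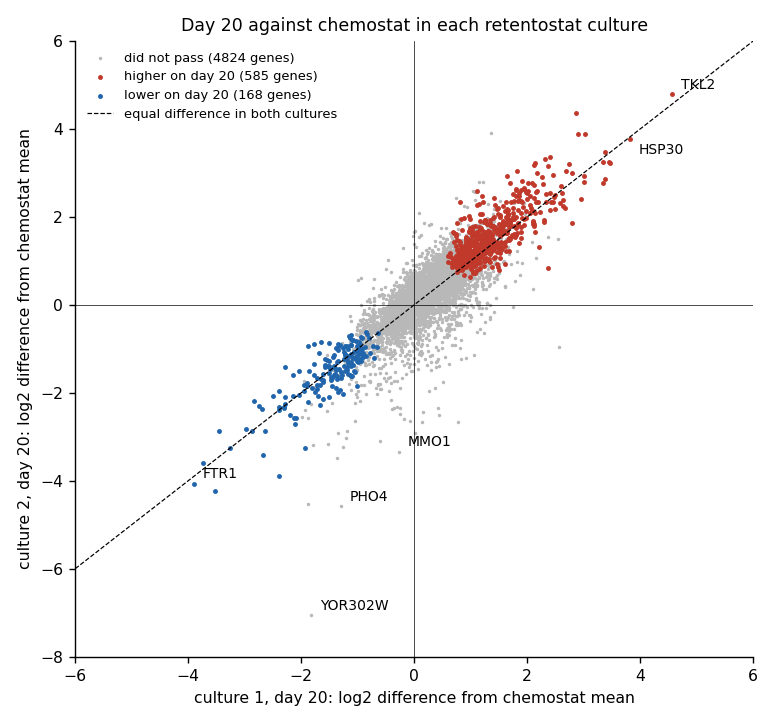
Log2 difference from the chemostat mean on the day 20 array of culture 1 (horizontal axis) and of culture 2 (vertical axis), 1 point per gene (5577 genes), coloured by the limma call. The called genes lie along the line of equal difference, and the points far below the line are genes that were low on the array of culture 2, such as YOR302W and PHO4.

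Among the largest rises was TKL2, a transketolase isozyme of the pentose phosphate pathway, with signals near the floor in the chemostat (13.5, 12.3 and 12.3) and of 300.6 and 350.1 on day 20. On the log2 scale the rise was 4.68 ± 0.43 (± SE, limma adjusted p = 0.000794), and all 3 probe sets of the gene were higher. HSP30, a plasma membrane protein known from heat and weak-acid stress that restrains the proton pump, rose from 101.3, 159 and 99 to 1656 and 1602 (3.80 ± 0.27, limma adjusted p = 0.000301). TPO2, a polyamine exporter of the plasma membrane, rose from 62.9, 78.3 and 59.1 to 734.8 and 623.4 (3.35 ± 0.23, limma adjusted p = 0.000301). These 3 genes are in the leave-one-out set, and their 2 cultures lay close together. The other 9 of the 12 largest rises were not products of nuclear protein-coding genes: ATP6 and COX3 are encoded in mitochondrial DNA, SNR14, SNR128, SNR13 and SNR46 are small nuclear or nucleolar RNAs, and YNCM0020W, SUF6 and SUF1 are tRNA genes. The probe sets of these tRNA genes carry a suffix used for shared probe sets, so they may not be separate measurements.

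The largest falls were led by genes of iron uptake. FTR1, the high-affinity iron permease, gave 1195, 1228 and 1101 in the chemostat and 78.2 and 69.9 on day 20, a log2 difference of -3.99 ± 0.39 (limma adjusted p = 0.000902). FIT2, a cell wall mannoprotein that retains siderophore-bound iron, fell from 4384, 2704 and 3882 to 311.5 and 189.7 (-3.88 ± 0.32, limma adjusted p = 0.000402). PLB2, a phospholipase B, fell from 1256, 1356 and 1317 to 98.5 and 108.9 (-3.66 ± 0.33, limma adjusted p = 0.000663). ALD4, the mitochondrial aldehyde dehydrogenase, went from 3550, 5410 and 4621 to 467.3 and 463 (-3.26 ± 0.34, limma adjusted p = 0.00107). RGI2, a protein of energy metabolism under respiratory conditions, went from 2469, 2714 and 2139 to 221.9 and 333.7 (-3.16 ± 0.25, limma adjusted p = 0.000402). In these 5 genes both day 20 signals were under every chemostat signal, as the rule for the largest falls requires. All 5 are in the leave-one-out set.

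Below these stood SAM4, an S-adenosylmethionine-homocysteine methyltransferase, at 84.5, 94.2 and 84.4 in the chemostat and 3.2 and 1.5 on day 20. Both day 20 values are under the floor, so the fall was at least 7.3-fold (limma adjusted p = 0.000313). PBI1, whose locus YPL272C is next in number to that of SAM4, fell from 449, 243 and 237.5 to 47.5 and 40.8 (-2.75 ± 0.44, limma adjusted p = 0.00501). SFG1, a regulator of pseudohyphal growth, fell from 130.9, 165.8 and 254.9 to 46.5 and 18.6 (-2.59 ± 0.52, limma adjusted p = 0.0142), with the culture 2 array clearly the lower. YMR317W, a gene of unknown role, fell from 569.9, 332.5 and 631.9 to 73.2 and 99.4 (-2.53 ± 0.33, limma adjusted p = 0.0027).

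**Figure D2:**
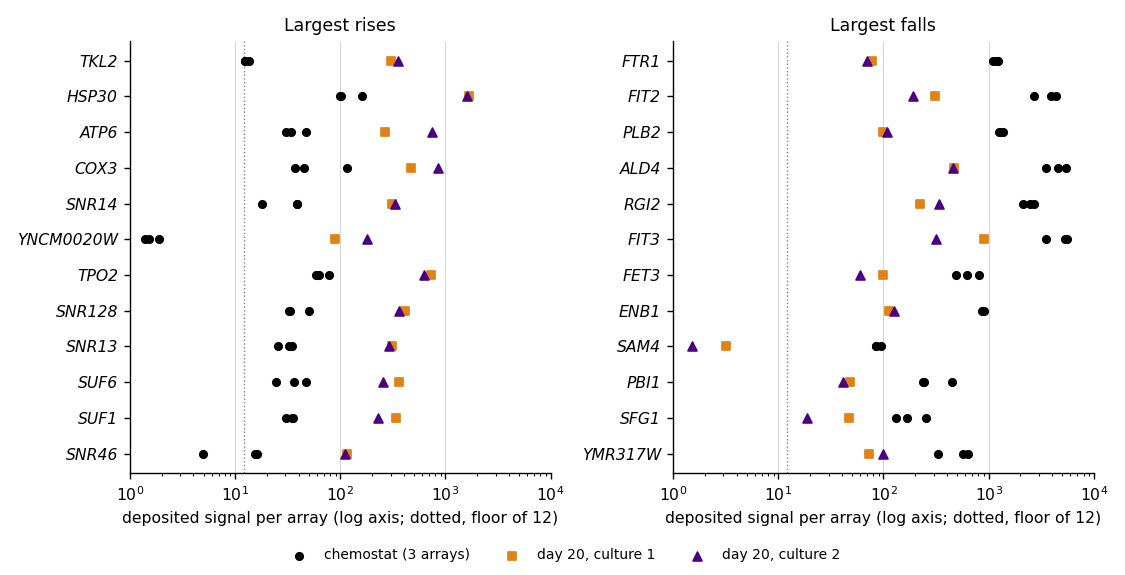
Deposited signal on each of the 5 arrays (log axis) for the 12 largest rises (left) and the 12 largest falls (right), with circles for the 3 chemostat arrays, squares for culture 1 and triangles for culture 2 on day 20. The rule that chose the 24 genes required both day 20 arrays to lie beyond all 3 chemostat arrays. TKL2 goes from 12.3 to 13.5 in the chemostat to 300.6 and 350.1, and FTR1 from 1101 to 1228 down to 78.2 and 69.9.

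Few genes of the pathway around the deleted kinase passed. Of 30 measured genes of Rim15 signalling, 1 rose and none fell, and the median log2 difference was 0.33 beside 0.36 for all genes. PDE1, a cyclic AMP phosphodiesterase, was the gene that rose, from 241.2, 230.7 and 194.3 to 444.8 and 388.9 (0.91 ± 0.26, limma adjusted p = 0.0466), a call that was lost with both scalings. IGO1 and IGO2, the endosulfines, did not pass: IGO1 gave 1433, 1895 and 1575, then 1580 and 1983, and IGO2 gave 318.5, 258.1 and 296.4, then 310.8 and 464.1, with overlapping groups in both. SCH9, the kinase that inhibits Rim15, had 161.1, 183.6 and 167.3 in the chemostat and 456.8 and 343.1 on day 20, higher on both arrays but over the threshold (limma adjusted p = 0.0784). The transcription factors MSN2 (216.8, 280.3 and 251.3, then 169.8 and 94.9, limma adjusted p = 0.271), MSN4 (245.7, 243.1 and 173.2, then 246.3 and 213.6) and GIS1 (38.1, 45.8 and 48.2, then 53.9 and 50.4) did not pass either. MSN2 was lower on both day 20 arrays.

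Stress genes rose in a minority of cases. Of 40 genes of the Msn2/4-type stress response 8 rose and 1 fell, with a median of 0.49, and 7 rose with quantile and 5 with median scaling. The members that rose included TKL2, GPX1 and HSP42. GPX1, a phospholipid hydroperoxide glutathione peroxidase, rose from 104.8, 214.9 and 143.7 to 795.2 and 749.6 (2.38 ± 0.32, limma adjusted p = 0.0027) and is in the leave-one-out set. Its call was lost, however, without the 3 arrays of high ACT1 ratio. HSP42, a small heat-shock protein that gathers misfolded proteins, rose from 382.5, 377 and 267.6 to 1058 and 1082 (1.66 ± 0.23, limma adjusted p = 0.00336). ALD4 was the member that fell. Members with high signals, such as HXK1 (8056, 7103 and 7120, then 6615 and 7928) and HOR7 (3882, 5266 and 3853, then 4494 and 4951), had groups that overlapped.

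Among 30 heat-shock chaperones 7 rose and 1 fell, with a median of 0.69 (6 rose with quantile and 4 with median scaling). Besides HSP30 and HSP42, BTN2, which sorts misfolded proteins, rose from 399.1, 370.4 and 325.2 to 830.1 and 954.7 (1.29 ± 0.22, limma adjusted p = 0.0071). The abundant cytosolic Hsp70 SSA2 was the member that fell, from 4919, 5000 and 4282 to 2430 and 1942 (-1.12 ± 0.23, limma adjusted p = 0.0153), and this call was lost with quantile scaling. Its close relative SSA1 was also lower on both arrays (10823, 11122 and 7947, then 6735 and 6305) without passing (limma adjusted p = 0.155), as was the Hsp90 gene HSC82 (6017, 5948 and 5520, then 4588 and 4964). Of 14 genes known as stationary-phase markers 6 rose and 2 fell, with a median of 1.02 (3 rose with either scaling). FMP16, a mitochondrial protein of this list, rose from 54.2, 44.1 and 39.5 to 161.1 and 142.1 (1.73 ± 0.23, limma adjusted p = 0.0027) and is in the leave-one-out set. SNZ1 and SNO1, which make pyridoxal phosphate and share a promoter region, fell: SNZ1 went from 2355, 2685 and 2151 to 774.8 and 803.4 (-1.60 ± 0.25, limma adjusted p = 0.00473), and SNO1 from 1146, 1342 and 1113 to 244.8 and 450.2 (-1.85 ± 0.40, limma adjusted p = 0.019).

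Genes of the reserve carbohydrates glycogen and trehalose were counted in separate lists. Of 18 genes of glycogen metabolism 6 rose (33.3%, beside 10.5% of all genes) and 1 fell, with a median of 0.93 (3 rose and 1 fell with either scaling). PIG2, a targeting subunit that brings the type 1 protein phosphatase to glycogen synthase, rose from 106.3, 79.6 and 95.5 to 336.5 and 489.2 (2.12 ± 0.33, limma adjusted p = 0.00456). GIP2, a related targeting subunit, rose from 68.1, 58.4 and 56.2 to 145.1 and 160.3 (1.33 ± 0.23, limma adjusted p = 0.00768), a call lost with quantile scaling. The phosphoglucomutases parted: the major isozyme gene PGM2 rose from 290.3, 326.5 and 394.3 to 1102 and 969.5 (1.63 ± 0.31, limma adjusted p = 0.0111), and the minor one, PGM1, fell from 307.5, 332.9 and 264.4 to 67.7 and 99.9 (-1.87 ± 0.38, limma adjusted p = 0.0157). None of 7 trehalose genes passed, and a list this short cannot be set apart from the background by its count. Their median was 0.49, beside 0.36 for all genes, and 3 were higher at an unadjusted limma p under 0.05. The neutral trehalase gene NTH1 came nearest of those named (559.9, 297.7 and 344.7, then 730.8 and 783.7, limma adjusted p = 0.055), and TPS1, the trehalose phosphate synthase, had 746, 1021 and 605.7, then 1020 and 1148. The difference between the glycogen and trehalose lists was not tested.

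Oxidative stress genes gave 3 rises among 30, a share near the 10.5% of all genes, and 4 falls (13.3%, beside 3.01% of all genes). The median was 0.27, beside 0.36 for all genes, and 2 fell with quantile scaling. TRR2, the mitochondrial thioredoxin reductase, rose from 123.4, 195.7 and 124.6 to 454.5 and 602.9 (1.86 ± 0.33, limma adjusted p = 0.00799), and PRX1, the mitochondrial peroxiredoxin, from 696.4, 951.7 and 566.5 to 1288 and 1328 (0.86 ± 0.25, limma adjusted p = 0.0475), a call lost with both scalings. The peroxiredoxin genes that fell were TSA1 (4680, 5136 and 4577, then 2440 and 2198, -1.05 ± 0.23, limma adjusted p = 0.0186, not with quantile scaling), TSA2 (344.6, 234.9 and 303, then 99 and 122.6, -1.40 ± 0.28, limma adjusted p = 0.0133) and AHP1 (708.2, 862.7 and 926.2, then 347.1 and 203.5, -1.64 ± 0.39, limma adjusted p = 0.0262). Tsa1, Tsa2 and Ahp1 work in the cytosol.

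Genes of high-affinity iron uptake gave 5 of the 12 largest falls. Of 28 measured genes none rose and 6 fell, 21.4% beside the background of 3.01%, and the list median was -0.17. The same number fell with quantile scaling and 7 with median scaling. The genes that fell serve the high-affinity routes of the plasma membrane and the cell wall. Besides FTR1 and FIT2, the multicopper oxidase gene FET3, whose product works together with Ftr1, fell from 626.3, 493.3 and 811.8 to 98 and 59.2 (-3.05 ± 0.33, limma adjusted p = 0.00107). ENB1, which takes up enterobactin-bound iron, fell from 889.1, 861.4 and 900.0 to 111.6 and 125.5 (-2.90 ± 0.30, limma adjusted p = 0.00107). FIT3, a cell wall mannoprotein like FIT2, fell from 5377, 3481 and 5536 to 894 and 316.8 (-3.14 ± 0.88, limma adjusted p = 0.0448). FTR1, FIT2, FET3 and ENB1 are in the leave-one-out set, while FIT3 passed in none of the 5 fits that left out an array and its 2 cultures were far apart, and it was not called with quantile scaling. ARN1, a siderophore transporter, was lower on both arrays without passing (739.5, 492.1 and 780.6, then 384.1 and 300.6, limma adjusted p = 0.111). FTH1, the vacuolar relative of FTR1, was higher on both arrays (345.3, 477.4 and 407.7, then 654.3 and 694.8, limma adjusted p = 0.0906) and did not pass.

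Sterol and anaerobic cell wall genes were lower on day 20. Sterol synthesis needs oxygen, so that yeast without it depends on sterol uptake, and the seripauperin and DAN/TIR mannoproteins are cell wall proteins known for their expression in anaerobic cells. Of 31 genes of ergosterol synthesis and sterol uptake none rose and 9 fell (29.0%), with a median of -0.71 (8 with quantile and 14 with median scaling). ERG20, farnesyl pyrophosphate synthetase, fell from 495.9, 579.3 and 451.1 to 102.8 and 99.5 (-2.32 ± 0.30, limma adjusted p = 0.0027). ERG28, a scaffold of the sterol demethylation complex, fell from 1619, 1654 and 1690 to 483 and 649 (-1.56 ± 0.24, limma adjusted p = 0.00426), and both are in the leave-one-out set. ERG24, a sterol reductase, went from 623.5, 668.1 and 563.7 to 243.8 and 224 (-1.40 ± 0.22, limma adjusted p = 0.00501). The brightest members did not pass, though both day 20 arrays were lower: ERG3, a sterol desaturase, had 8196, 8079 and 7251, then 3613 and 2507 (limma adjusted p = 0.0666), and ERG25, a sterol methyl oxidase, 7298, 6580 and 7338, then 4299 and 3318 (limma adjusted p = 0.176). The sterol importer AUS1 was lower on both arrays too (1431, 1406 and 1438, then 818.5 and 923.6, limma adjusted p = 0.225).

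Of 30 listed seripauperin and DAN/TIR genes 16 were measured. All 16 had both day 20 arrays under all 3 chemostat arrays, against 14.5% of all genes, and 10 (62.5%) fell past the threshold. Their median was -1.42, -1.31 in culture 1 and -1.56 in culture 2. PAU13 fell from 3788, 2482 and 2949 to 622.7 and 632.7 (-2.27 ± 0.27, limma adjusted p = 0.00188) and is in the leave-one-out set. PAU15 went from 577.9, 475.2 and 561.8 to 152.2 and 143.6 (-1.86 ± 0.25, limma adjusted p = 0.00284) and PAU4 from 2668, 2900 and 2341 to 859.7 and 772 (-1.69 ± 0.23, limma adjusted p = 0.00322). Seripauperin genes are near-identical copies, so their probe sets may share signal and are not separate measurements. DAN1 fell from 5646, 6188 and 6767 to 2412 and 1576 (-1.67 ± 0.40, limma adjusted p = 0.0264), a call lost with quantile scaling. TIR1 (10774, 11678 and 10873, then 7124 and 7249) and TIR4 (7254, 6513 and 6354, then 3275 and 1978) were lower on both arrays and did not pass. ANB1, the anaerobic form of translation factor eIF5A, had 2594, 4904 and 4292, then 4329 and 4945, while HYP2, its aerobic counterpart, fell from 4731, 2537 and 4423 to 882.6 and 631.6 (-2.33 ± 0.53, limma adjusted p = 0.0226). HEM13, an enzyme of heme synthesis that is high in anaerobic cells, had 1039, 369.4 and 991, then 860.3 and 693.7, with overlapping groups. Over the 26 genes of heme synthesis and oxygen-regulated isoforms 3 rose and 3 fell, with a median of 0.25 (1 fell with quantile and 1 rose with median scaling). Each count is 11.5% of the list, beside 10.5% of all genes higher and 3.01% lower.

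Genes of lipid synthesis gave more falls than rises. Of 31 genes of fatty acid and phospholipid synthesis 1 rose and 6 fell, with a median of 0.04. ACC1, acetyl-CoA carboxylase and the first step of fatty acid synthesis, fell from 6112, 6497 and 5403 to 2477 and 1988 (-1.43 ± 0.21, limma adjusted p = 0.00421). ELO3, which extends very long chains, fell from 1603, 1586 and 1529 to 722.1 and 598.6 (-1.26 ± 0.25, limma adjusted p = 0.0132), and ACB1, the acyl-CoA binding protein, from 3577, 3625 and 3688 to 1516 and 1849 (-1.12 ± 0.23, limma adjusted p = 0.0155). OLE1, the oxygen-dependent desaturase, fell from 5559, 4334 and 5687 to 2300 and 1737 (-1.37 ± 0.38, limma adjusted p = 0.0448), a call lost with quantile scaling. PAH1, the phosphatidate phosphatase that directs lipid towards storage, was the member that rose, from 102.7, 71.7 and 103.5 to 199.9 and 223.2 (1.21 ± 0.32, limma adjusted p = 0.0366); it was not called with either scaling.

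Amino acid synthesis was the list with the most falls by number. By share, the seripauperin and DAN/TIR list (62.5%) and the ergosterol list (29.0%) had more. Of 72 genes outside sulfur metabolism 1 rose and 18 fell (25.0%, beside 3.01% of all genes), with a median of -0.63. In 49 of them both day 20 arrays were under all 3 chemostat arrays, against 14.5% of all genes. With quantile scaling 22 fell and with median scaling 31. HIS1, the first enzyme of histidine synthesis, fell from 1287, 1213 and 1167 to 363.5 and 310.0 (-1.86 ± 0.25, limma adjusted p = 0.0027). ARG1, argininosuccinate synthetase, fell from 5039, 5945 and 4729 to 1869 and 1604 (-1.59 ± 0.22, limma adjusted p = 0.00336). HOM3, the aspartate kinase that leads to threonine and methionine, fell from 593.3, 602.2 and 573.3 to 215.9 and 186.4 (-1.55 ± 0.22, limma adjusted p = 0.00336). GCN4, the transcriptional activator of these pathways, had 7718, 5896 and 6655 in the chemostat and 5592 and 5973 on day 20, groups that overlap. TRP1 was the exception that rose, from 567.8, 325.1 and 437.6 to 979.3 and 946.4 (1.16 ± 0.27, limma adjusted p = 0.0258), a call lost with median scaling.

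Sulfur and purine pathways also had medians under 0. Of 35 sulfur and methionine genes 1 rose and 4 fell, with a median of -0.37 (8 fell with median scaling). MET22, a bisphosphate nucleotidase of sulfate assimilation, fell from 1194, 1451 and 1231 to 572.4 and 518.5 (-1.24 ± 0.25, limma adjusted p = 0.0155), and HOM2 from 1291, 1149 and 1248 to 500.3 and 387 (-1.48 ± 0.35, limma adjusted p = 0.0247). MET17, homocysteine synthase, was lower on both arrays (4182, 3662 and 4576, then 2880 and 2912) without passing (limma adjusted p = 0.124). Of 16 genes of purine synthesis none rose and 4 fell, with a median of -0.56. ADE4, the first committed enzyme, fell from 110.8, 105.9 and 103.8 to 35 and 24.3 (-1.87 ± 0.28, limma adjusted p = 0.00426), ADE17 from 2310, 2196 and 2046 to 662 and 617.1 (-1.77 ± 0.31, limma adjusted p = 0.00815), and SHM2, the cytosolic serine hydroxymethyltransferase that supplies one-carbon units, from 1684, 2161 and 1872 to 507.8 and 548.9 (-1.84 ± 0.33, limma adjusted p = 0.00908). IMD2, of guanine nucleotide synthesis, had overlapping groups (3002, 2319 and 2790, then 2301 and 2840).

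The cytosolic ribosome was lower in small steps. Of 137 listed cytosolic ribosomal protein genes 80 were measured by a single-gene probe set. None of these rose and 9 fell (11.3%), with a median of -0.44. In 62 of the 80 both day 20 arrays were under all 3 chemostat arrays. None of the 80 lay above the median of all genes. The count was 5 with quantile and 24 with median scaling, and the list median was -0.26 and -0.85, respectively. RPS22A fell from 4991, 5429 and 5460 to 1771 and 1984 (-1.50 ± 0.24, limma adjusted p = 0.00519), RPL36A from 5929, 6702 and 7012 to 2028 and 3039 (-1.40 ± 0.26, limma adjusted p = 0.00997) and RPS1A from 5177, 5399 and 5514 to 2338 and 2237 (-1.23 ± 0.20, limma adjusted p = 0.00519). The brightest member, RPS26A, moved less (10008, 9503 and 9514, then 6121 and 7162, limma adjusted p = 0.0996). Paralogous ribosomal genes are close in sequence, so that a probe set may read both copies.

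Few genes that make ribosomes passed. Of 118 ribosome biogenesis factors 2 rose and 3 fell, with a median of 0.13 that turned to -0.33 with quantile and -0.28 with median scaling. NOP58, a core protein of box C/D snoRNA particles, fell from 1754, 2798 and 2265 to 978.2 and 831.5 (-1.31 ± 0.31, limma adjusted p = 0.0264), but 2 of its 4 probe sets gave a higher value on day 20. RPA49, a subunit of RNA polymerase I, fell from 270.4, 257.3 and 287.4 to 102.2 and 90.0 (-1.50 ± 0.27, limma adjusted p = 0.00939), the 1 fall among 22 subunits of RNA polymerases I and III, of which 1 rose (3 fell and none rose with either scaling). Of 31 translation factors none rose and HYP2 fell (2 fell with quantile and 5 with median scaling). Elongation factor 3, YEF3, was lower on both arrays (8336, 8010 and 7420, then 5148 and 4894) and did not pass (limma adjusted p = 0.0637). Of 20 aminoacyl-tRNA synthetases none rose and 3 fell, with a median of -0.43 (4 fell with quantile and 8 with median scaling). WRS1, for tryptophan, fell from 759.4, 966.3 and 770.0 to 409.5 and 402 (-1.03 ± 0.22, limma adjusted p = 0.0172) and TYS1, for tyrosine, from 543.1, 413.1 and 433.1 to 202.2 and 240.9 (-1.06 ± 0.22, limma adjusted p = 0.0167). KRS1, for lysine, had 30.3, 24 and 22.2, then 8.1 and 6.3, under the floor on day 20, a fall of at least 2.11-fold (limma adjusted p = 0.0134).

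Mitochondrial ribosomal proteins went the other way in the deposited values. Of 71 genes 11 rose (15.5%, beside 10.5% of all genes) and none fell, with a median of 0.79. With quantile or median scaling 1 rose, and the list medians were 0.41 and 0.39 where all genes had 0.03 and -0.03. RSM27, of the small subunit, rose from 59.7, 68.2 and 62.1 to 168.3 and 169.7 (1.42 ± 0.20, limma adjusted p = 0.00336), with both scalings as well. MRPL7, of the large subunit, rose from 199.9, 164.1 and 143.8 to 376.8 and 369.5 (1.15 ± 0.22, limma adjusted p = 0.0119), a call lost with both scalings. In 57 of the 71 genes the difference was above the median of all genes. The respiratory chain and ATP synthase list was similar, with 6 of 37 higher, none lower and a median of 0.66 (6 higher with quantile and 1 with median scaling). CYC7, the isoform of cytochrome c favoured at low oxygen, rose from 139.9, 105.5 and 84.5 to 318.1 and 351.1 (1.63 ± 0.25, limma adjusted p = 0.0043), and its aerobic counterpart CYC1 from 599.1, 946.4 and 876.7 to 2455 and 1859 (1.43 ± 0.35, limma adjusted p = 0.0283), the latter not with median scaling. INH1, the inhibitor of the ATP synthase, rose from 568, 460.5 and 551.8 to 1144 and 1100 (1.10 ± 0.25, limma adjusted p = 0.021), a call lost with median scaling. The brightest subunits did not change beyond their spread, such as ATP15 with 3705, 3369 and 3160, then 3631 and 3973.

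Of 25 genes of glycolysis and ethanol fermentation none rose and 1 fell, with a median of -0.33 (2 fell with quantile and 5 with median scaling). That gene was ALD6, the cytosolic acetaldehyde dehydrogenase, which fell from 3108, 2354 and 2902 to 601.1 and 483.9 (-2.36 ± 0.30, limma adjusted p = 0.0027). The highest signals of the pathway were lower on both day 20 arrays without passing: TDH3, glyceraldehyde-3-phosphate dehydrogenase, had 12351, 11916 and 13738, then 7815 and 8126 (limma adjusted p = 0.342), and ADH1, alcohol dehydrogenase, 12649, 11391 and 11069, then 6774 and 5980 (limma adjusted p = 0.0875). Genes of gluconeogenesis and the glyoxylate cycle rose in 5 of 15 cases and fell in 2, with a median of 0.43 (3 rose with either scaling). FBP1, the fructose bisphosphatase of gluconeogenesis, rose from 28.2, 26.1 and 23.5 to 142.6 and 130.0 (2.40 ± 0.27, limma adjusted p = 0.00127) and is in the leave-one-out set. MLS1, malate synthase, rose from 26.9, 28 and 26.4 to 181.4 and 247.6 (2.97 ± 0.39, limma adjusted p = 0.0027), and PCK1, phosphoenolpyruvate carboxykinase, from 848.2, 857.3 and 760.9 to 3054 and 2817 (1.84 ± 0.26, limma adjusted p = 0.00374). ACS2, the acetyl-CoA synthetase needed on glucose, fell from 2219, 2148 and 1867 to 758.6 and 577.8 (-1.65 ± 0.24, limma adjusted p = 0.00419). JEN1, the lactate and pyruvate importer, fell from 736.4, 735.8 and 549.9 to 348.8 and 276.5 (-1.10 ± 0.24, limma adjusted p = 0.0198).

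Of 17 hexose transporters and sensors 1 rose, HXT4 (25.3, 28.4 and 24.6, then 69.2 and 54.5, 1.24 ± 0.26, limma adjusted p = 0.0182), and it was not called with either scaling. The bright high-affinity transporters HXT6 (6955, 5790 and 6812, then 6555 and 7580) and HXT7 (6893, 4951 and 8027, then 5468 and 6719) had overlapping groups. Of 20 TCA cycle genes 2 rose, both subunits of succinate dehydrogenase: SDH4 from 1936, 1002 and 1292 to 3901 and 3357 (1.41 ± 0.35, limma adjusted p = 0.0313) and SDH1 from 527.1, 706.9 and 455.5 to 1169 and 1017 (0.98 ± 0.27, limma adjusted p = 0.0435). Neither passed with median scaling. Of 28 genes of peroxisomes and beta-oxidation 1 rose and 5 fell, 17.9% beside the background of 3.01%, with a median of -0.16. POX1, acyl-CoA oxidase, fell from 268.5, 192 and 208.6 to 59.9 and 47.7 (-2.05 ± 0.48, limma adjusted p = 0.0256), lower in all 4 of its probe sets. FAA2, a medium-chain acyl-CoA synthetase, fell from 313.4, 265.9 and 254.3 to 90.1 and 84 (-1.67 ± 0.33, limma adjusted p = 0.0144) and ECI1, enoyl-CoA isomerase, from 157.4, 224.4 and 177.8 to 70.3 and 65.8 (-1.44 ± 0.25, limma adjusted p = 0.00704). None of 13 glycerol genes passed.

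Some genes of nitrogen and phosphate scavenging rose, though the nitrogen list as a whole did not lie above all genes. Of 32 genes of nitrogen catabolism and uptake 5 rose (15.6%, beside 10.5% of all genes) and none fell. The list median was 0.13, under that of all genes, and 8 of the 32 lay above the median of all genes. UGA4, a transporter of aminobutyrate (GABA), rose from 26.8, 20.4 and 28.3 to 113.6 and 125.3 (2.26 ± 0.25, limma adjusted p = 0.00127) and is in the leave-one-out set. DUR3, the urea transporter, rose from 63.8, 52.9 and 55.7 to 155.1 and 189.2 (1.58 ± 0.24, limma adjusted p = 0.00419), and PUT2, of proline breakdown in mitochondria, from 193.8, 197.2 and 171.5 to 496.8 and 639.4 (1.59 ± 0.24, limma adjusted p = 0.00426). OPT2, an oligopeptide transporter, was higher on both arrays (643.5, 164.7 and 333.2, then 1260 and 1621), but the chemostat arrays were far apart and it did not pass (limma adjusted p = 0.0898). With quantile scaling 3 members of this list rose and 2 fell, and with median scaling 3 rose and 1 fell. Of 23 genes of the phosphate regulon and phospholipases 6 rose (26.1%) and 1, PLB2, fell, with a median of 0.66 (3 rose with either scaling). GIT1, a glycerophosphodiester transporter, rose from 91.7, 124 and 84 to 331.9 and 415.7 (1.92 ± 0.25, limma adjusted p = 0.0027). VTC3 and VTC1, subunits of the polyphosphate synthase of the vacuole, rose from 86.3, 108.8 and 83.4 to 229.7 and 257 (1.40 ± 0.25, limma adjusted p = 0.00843) and from 899.7, 975.6 and 835.8 to 1760 and 2050 (1.07 ± 0.21, limma adjusted p = 0.0125), the latter not with median scaling.

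Of 32 autophagy genes 5 rose and none fell, with a median of 0.66, but 0 rose with quantile and 1 with median scaling. ATG32, the receptor for mitophagy, rose from 57.9, 48.2 and 37.9 to 153.3 and 164.7 (1.75 ± 0.29, limma adjusted p = 0.00626), and ATG1, the kinase that starts autophagy, from 79, 78.8 and 71.9 to 193.8 and 204.9 (1.38 ± 0.27, limma adjusted p = 0.0118). RPN4, the transcription factor for proteasome genes, rose from 453.7, 456.4 and 387.9 to 1396 and 1568 (1.78 ± 0.27, limma adjusted p = 0.00433). Of the 35 genes of the proteasome list, RPN4 included, 3 rose (8.6%, beside 10.5% of all genes), with a median of 0.31, and 1 rose with either scaling. The bright subunit genes PUP3 (3621, 2840 and 2597, then 2956 and 3071) and PRE6 (1821, 1250 and 1570, then 1512 and 1322) had overlapping groups. Of 13 vacuolar hydrolases 1 rose. PEP4, the protease that activates the others, was lower on both arrays (3036, 3063 and 2822, then 2436 and 1982) and PRB1 higher (1700, 1522 and 1728, then 2786 and 2392), both without passing.

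Of 33 G1/S genes 3 rose and none fell, with a median of 0.22. The share that rose, 9.1%, was near the background of 10.5%. CLN1, a G1 cyclin, rose from 641.4, 649 and 608.4 to 1134 and 1464 (1.03 ± 0.25, limma adjusted p = 0.0301) and CLB5, an S-phase cyclin, from 200.0, 239.6 and 210.9 to 411 and 524.7 (1.10 ± 0.31, limma adjusted p = 0.0451). RNR1, the large subunit of ribonucleotide reductase, was lower on both arrays (1266, 1522 and 1388, then 854.7 and 691.3) and did not pass (limma adjusted p = 0.0839). Of 20 G2/M genes 3 rose, among them the mitotic cyclin CLB1, from 52.9, 48.1 and 45.9 to 99.9 and 145.7 (1.30 ± 0.27, limma adjusted p = 0.0167). With quantile or median scaling no G1/S or G2/M gene rose, and 1 and 2 G1/S genes fell, respectively. POL2 of the G1/S and APC1 of the G2/M list gave -0.24 and -0.12 when their probe sets were averaged. Of 10 listed core histone genes 4 were measured. Among these HTB2 fell (1433, 1469 and 1167, then 695.9 and 691.6, -0.96 ± 0.28, limma adjusted p = 0.0485), not with quantile scaling, and HTB1 had overlapping groups (1887, 1819 and 1893, then 1542 and 1996).

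Daughter-cell separation, the last step of division, showed 4 falls and 1 rise among 25 genes, with a median of -0.16 (2 falls with quantile scaling). EGT2, a cell wall glucanase of early G1, fell from 919.3, 945.9 and 937.6 to 354.3 and 314 (-1.49 ± 0.21, limma adjusted p = 0.00362). CTS1, the chitinase that cuts the septum, fell from 4741, 4566 and 4384 to 2143 and 1987 (-1.14 ± 0.29, limma adjusted p = 0.0333), and DSE2, a daughter-specific glucanase, from 1846, 1273 and 1630 to 726.3 and 893.2 (-0.96 ± 0.26, limma adjusted p = 0.043), both calls lost with quantile scaling. PIR3, a cell wall protein, rose from 236.5, 242 and 308.4 to 2004 and 1385 (2.68 ± 0.29, limma adjusted p = 0.00107) and is in the leave-one-out set. Its relative CIS3 did not pass (1853, 2084 and 1933, then 2293 and 2147).

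The 7 a-specific genes had none past the threshold and a median of 0.35, while 3 of 5 alpha-specific genes rose, with a median of 1.62. MF(ALPHA)1, the main alpha-factor gene, rose from 150.4, 188.5 and 138 to 1012 and 1291 (2.86 ± 0.33, limma adjusted p = 0.0014) and is in the leave-one-out set. STE3, the receptor for a-factor, rose from 65.3, 97 and 82.2 to 289.3 and 212.7 (1.62 ± 0.31, limma adjusted p = 0.0116). MF(ALPHA)2, the minor alpha-factor gene, rose from 8, 14.5 and 8.6 to 42.6 and 38.4 (1.66 ± 0.31, limma adjusted p = 0.00997), a call lost with quantile scaling. The a-specific pheromone genes MFA1 (7782, 7565 and 6572, then 5841 and 7594) and MFA2 (6520, 6127 and 5434, then 5439 and 6662) were bright on all 5 arrays, with overlapping groups. The difference between the a-specific and the alpha-specific list was not tested. The summed signal of the 5 alpha markers was 417.8 to 470.5 in the chemostat and 1706 and 1992 on day 20. Whether cells of the other mating type took part was not tested. Of 32 genes of meiosis and sporulation 5 rose and 1 fell, with a median of 0.50, and with quantile or median scaling none rose and 1 fell. DIT1, of spore wall synthesis, had the smallest p of those that rose (16.4, 14.7 and 12.9, then 44.8 and 45, 1.62 ± 0.32, limma adjusted p = 0.0143), at a low signal. Of the 6 defining meiotic markers, 1 (SPO11) was under the floor on all 5 arrays, and their summed signal was 131.8 to 177.8 and then 197.5 and 267.5.

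**Figure D3:**
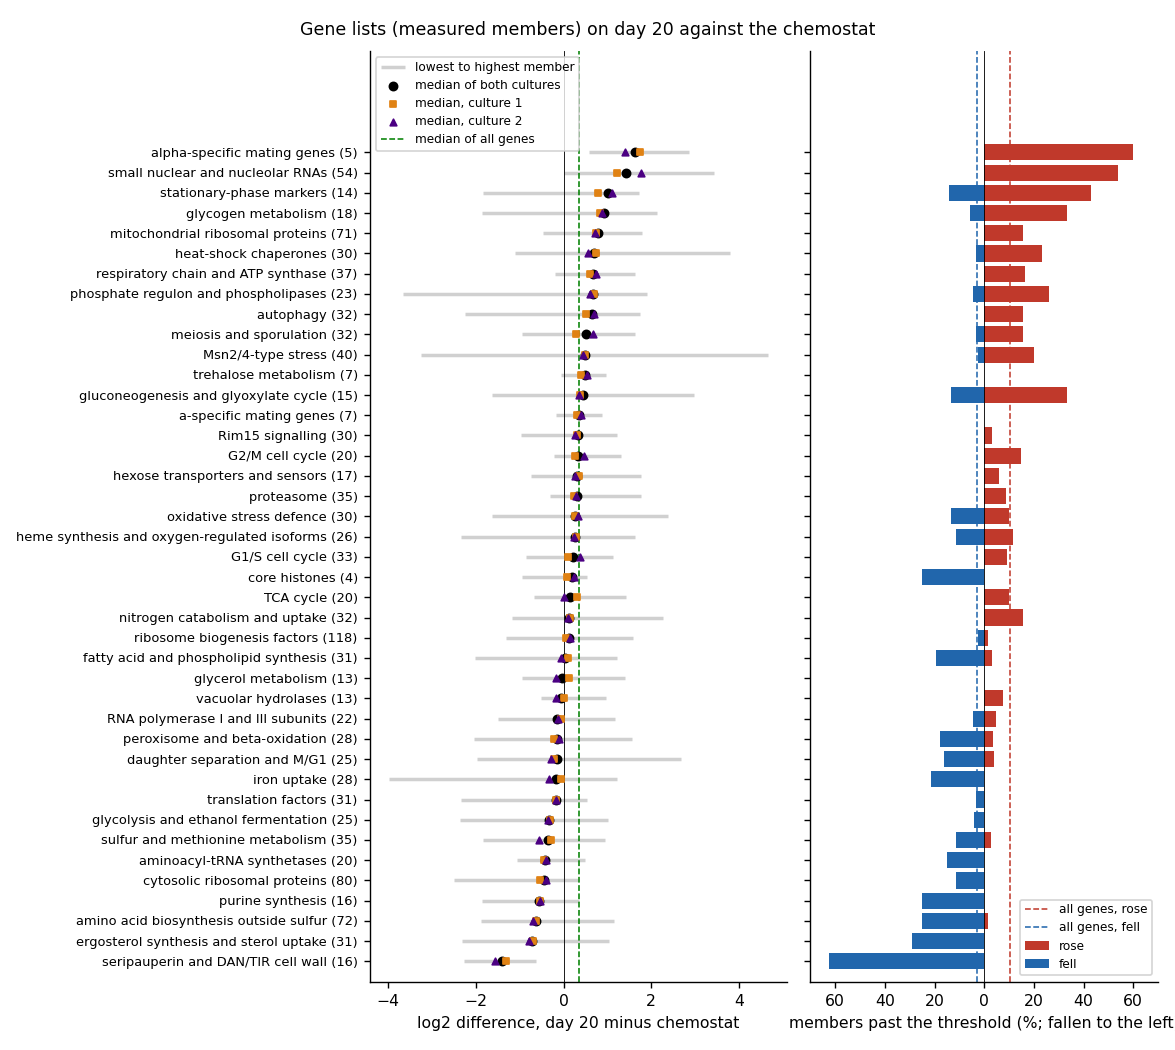
For 41 gene lists with their number of measured members, the left panel gives the median log2 difference between day 20 and the chemostat for both cultures and for each culture, with the range of the members, and the right panel the percentage of members that rose or fell past the threshold. The seripauperin and DAN/TIR list (median -1.42) and the ergosterol list (-0.71) lie lowest, and the alpha-specific (1.62) and small RNA lists (1.42) highest, beside 0.36 for all genes.

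By culture, the list medians were -0.69 in culture 1 and -0.78 in culture 2 for the ergosterol list, -0.64 and -0.69 for amino acid synthesis, -0.53 and -0.41 for cytosolic ribosomal proteins, and 0.75 and 0.71 for mitochondrial ribosomal proteins. The iron list gave -0.07 and -0.33, and the small RNA list 1.21 and 1.76.

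The 3 lists with no call in limma each held some members at an unadjusted p under 0.05, namely 3 trehalose genes, 1 glycerol gene and 1 a-specific gene, all higher. Where a list had calls in 1 direction and 0 in the other, members of the uncalled direction at an unadjusted p under 0.05 were 4 higher in iron uptake, 3 higher in the ergosterol list, 1 higher in glycolysis, 2 lower each in the G1/S and nitrogen lists and 1 lower in Rim15 signalling. There were none in the other such lists, among them both ribosomal protein lists, the seripauperin list and the small RNAs.

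Non-coding RNAs made up much of the upper end. Of 51 snoRNA genes, whose products guide the modification of ribosomal RNA, 25 rose (49.0%, beside 10.5% of all genes) and none fell, with a median of 1.37. All 4 snRNA genes rose, with a median of 2.79, and 36 of 88 tRNA genes rose, with none lower and a median of 1.05. With quantile scaling 18 tRNA genes rose and 1 fell, and with median scaling 20 rose and 1 fell. The small nuclear and nucleolar RNA list of 54 genes had 29 rises and a median of 1.42, and 20 rises with either scaling. SNR14, the U4 RNA of the spliceosome, rose from 38.6, 18 and 38.6 to 312.6 and 333.6 (3.43 ± 0.34, limma adjusted p = 0.000902). SNR128, the U14 snoRNA needed for processing of the small-subunit ribosomal RNA, rose from 33.4, 32.4 and 50.6 to 412.8 and 359.3 (3.34 ± 0.31, limma adjusted p = 0.000806), and SNR13 from 32.6, 25.5 and 34.8 to 310.9 and 291.6 (3.29 ± 0.27, limma adjusted p = 0.000402). These 3 are in the leave-one-out set, and the cultures were close. SNR46 had 16.1, 4.9 and 15.4, then 115.9 and 110.2 (2.97 ± 0.41, limma adjusted p = 0.00336). SUF6, a tRNA gene, rose from 47.5, 24.4 and 35.9 to 359.6 and 251.8 (3.12 ± 0.36, limma adjusted p = 0.0014) and SUF1 from 34.3, 30.4 and 35.2 to 336.4 and 227.2 (3.06 ± 0.29, limma adjusted p = 0.000806). YNCM0020W was under the floor on all 3 chemostat arrays (1.5, 1.4 and 1.9) and gave 89.6 and 178.1 on day 20, a rise of at least 10.5-fold (limma adjusted p = 0.0014).

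The median differences of these classes were larger in culture 2 than in culture 1: 1.75 against 1.08 for snoRNAs, 1.41 against 0.81 for tRNAs and 3.11 against 2.50 for snRNAs. Without the 3 arrays of high ACT1 ratio 14 snoRNA, 13 tRNA and 4 snRNA genes rose. Messenger RNA was isolated before labelling, per the labels, and these RNAs carry no stable poly(A) tail in growing cells, so their signals are not a measure of their total amount. Of the 88 tRNA probe sets 87 had a name suffix other than that of a plain, unique probe set, against 4 of the 51 for snoRNAs. Those tRNA probe sets may share signal, so the tRNA calls may not be separate measurements. The part of the ACT1 ratio in the rises of these classes was not tested further.

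Mitochondrially encoded transcripts were split. Of 16 measured genes and intron reading frames 7 rose and none fell, and their median was 0.24, under that of all genes. ATP8 and VAR1 were under the floor on all 5 arrays. The intron frames AI1, AI2, AI3 and AI5_BETA gave at most 29.1 on them, so the class median rests in part on signals at or near the floor. ATP6, a subunit of the ATP synthase, rose from 30.1, 34 and 46.8 to 264.2 and 744.6 (3.61 ± 0.58, limma adjusted p = 0.00501) and COX3, of cytochrome c oxidase, from 36.8, 44.8 and 114.9 to 466.2 and 846.5 (3.45 ± 0.62, limma adjusted p = 0.0086). COB, cytochrome b, rose from 50.9, 69.5 and 96 to 262.4 and 490.0 (2.36 ± 0.47, limma adjusted p = 0.0139) and COX2 from 34.8, 32.5 and 69 to 149.8 and 260.0 (2.21 ± 0.45, limma adjusted p = 0.0156). Others did not pass: COX1 had 4208, 4470 and 4524, then 3804 and 4729, and OLI1, of the ATP synthase rotor, 3401, 2973 and 2780, then 1949 and 2079 (limma adjusted p = 0.553). In ATP6, COX3, COB and COX2 the array of culture 2 was the higher, and 1 of the 16 passed without the arrays of high ACT1 ratio.

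**Figure D4:**
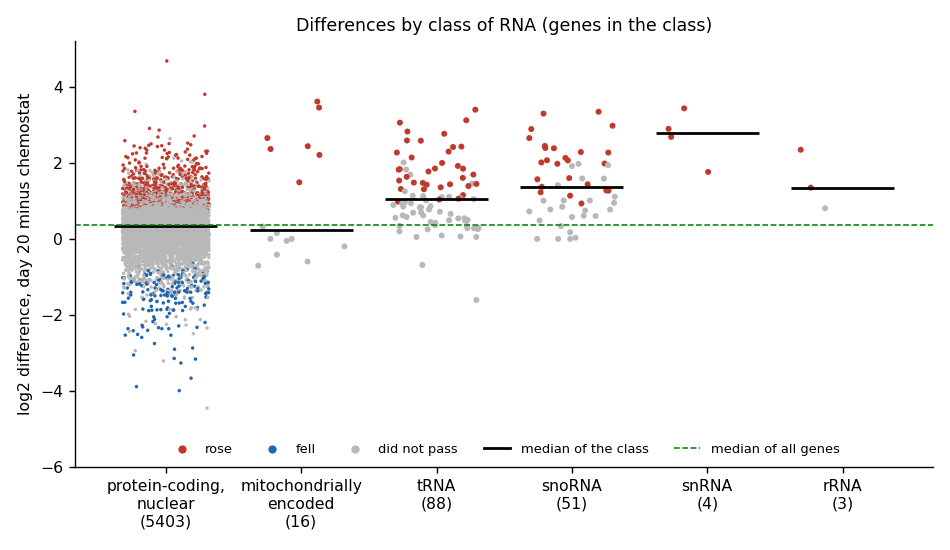
Log2 difference between day 20 and the chemostat for each gene, by class of RNA, with the number of genes in each class, coloured by the limma call; black bars are class medians and the dashed line is the median of all genes (0.36). Of the tRNA, snoRNA and snRNA genes 36 of 88, 25 of 51 and 4 of 4 rose, while the 168 falls are all among nuclear protein-coding genes.

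The 2 day 20 cultures differed by over 1 log2 unit in 239 genes. The 6 widest gaps among genes with a mean day 20 signal of at least 50 all had the lower signal on the array of culture 2, the one with the high ACT1 ratio. YOR302W, the short reading frame ahead of the arginine gene CPA1, had 4556, 4704 and 4448 in the chemostat and then 1286 and 34.1. PHO4, the transcription factor of the phosphate regulon, had 340.6, 245.8 and 277.3, then 115.7 and 8.8. MMO1 had 830.2, 953.6 and 877.9, then 731.4 and 87.4, ART5, an adaptor for ubiquitin ligase, 94.6, 94.3 and 113.9, then 99.7 and 10.8, and COX19, a mitochondrial assembly protein, 80.5, 87.9 and 83.5, then 143 and 13.3. RDN25-1, the large ribosomal RNA, had 244.3, 33.6 and 60.8, then 470.1 and 40.8, a spread that the chemostat arrays shared. In MMO1 and ART5 culture 1 lay near or within the chemostat values and culture 2 far under them, and none of the 6 genes passed. Over the 5 length classes of genes the median gap of culture 2 over culture 1 was 0.20 for coding or transcript lengths up to 500 bases and 0.01 to 0.10 for longer ones.

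Genes read by several probe sets give a further view of the same arrays. Of 17 named genes with more than 1 probe set, 8 had probe sets of both signs. TKL2, POX1, AUS1, RPA190, IMD2 and RPS26A had all of theirs differing in 1 direction. In APC1 (5 probe sets above the floor) and POL2 (5), which were called higher in the G2/M and G1/S lists, 1 probe set was higher on day 20 and 2 and 4, respectively, were lower, so these 2 calls rest on the brightest probe set. FAS2, a fatty acid synthase subunit, ranged from -5.31 to 0.35 over its 8 probe sets, and YHB1, the flavohaemoglobin called lower (4184, 4079 and 4626, then 2156 and 2256, limma adjusted p = 0.0373, not with quantile scaling), from -2.87 to 1.1 over 4. In FAS2 the range was -5.31 to -0.24 in culture 1 and -6.66 to 0.95 in culture 2. Where on the transcript each probe set lies was not analysed here.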

How the data were processed

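Transcript levels were measured on 11 one-colour Affymetrix yeast arrays, 1 per sample. Per the labels' protocols, total RNA was extracted with hot phenol and messenger RNA was isolated from it before labelling. The authors deposited intensity values, 1 linear signal for each probe set, from GCOS 1.2 per the submitters' processing notes; its settings were not stated. The deposited values were scaled to 1 trimmed mean per array (lowest and highest 2% left out, equal within 0.0311%), were not log-transformed and reached down to 0. Signals under 12 were set to 12 and taken to log2. The number of arrays limits the precision.

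Samples were grouped by their titles. The retentostat cultures carry the same 2 culture codes on every day and the chemostat cultures codes of their own, so replicate numbers do not pair the groups compared. Deviations of same-numbered chemostat and day 20 arrays from their group means correlated across genes at 0.024 and -0.039. The comparison was fitted by lmFit and eBayes of limma 3.58.1, run in R 4.3.3 (1 mean per group over all 11 arrays, 6 residual and 3.52 prior degrees of freedom), with Benjamini-Hochberg adjustment over 5577 genes and a threshold of 0.05. Retentostat arrays of other days share cultures with day 20 and enter only the estimate of the spread, so 6 degrees of freedom may overstate the independent information. The ± beside a log2 difference is limma's moderated SE. "Rose" and "fell" are used of genes past the threshold.

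A gene with several single-gene probe sets was read from the one of highest mean log2 value. Gene symbols come from the platform annotation, updated through a RefSeq gene table to which all 6504 single-gene probe sets matched. Probe sets annotated to several genes name none. Counts for a gene list are over its measured members, and listed genes without a single-gene probe set are not among them. Coordinates are left out because the build is not stated, and promoter sequences were not used here, so a planned description of promoter motifs was not made. Folds against a group under the floor are lower bounds. On simulated data with the same groups and number of arrays (5577 genes) the fit called 19% of genes changed by 1 log2 unit and 64% of those changed by 2, and 0.0372% of unchanged genes. In the simulation 100 genes were changed by each size and errors were independent between arrays. The real retentostat arrays share cultures and 753 genes were called, so these rates may not carry over to the data.

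The comparison, the 41 gene lists and the rule for named genes were chosen with earlier results of these data known. The rule takes a fixed panel of 7 Rim15 pathway genes, the 12 largest rises and 12 largest falls (non-overlapping arrays, group mean of the brighter side 50 or more), per list up to 3 risen and 3 fallen genes with the smallest p and up to 2 others with the highest signal, and the 6 genes with the widest gap between the day 20 arrays. COB, COX2, COX1 and OLI1 were named after their values were seen. The alternatives were other scalings, floors, probe-set rules and subsets of arrays.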

Additional observations from a re-analysis of the deposited data

Results flagged for a closer look

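The 3′ to 5′ signal ratio of the ACT1 control probe sets, which lie outside the gene comparison, was above the chemostat range of 0.966 to 1.31 on both day 20 arrays. It was 1.62 in culture 1 and 31.8 in culture 2, where the 5′ probe set gave 149.8 against 2823 in culture 1. The ratio of the control transcript SRB4 was 5.33 in culture 1 and 17.3 in culture 2, where the chemostat arrays had 2.49 to 5.75, and that of SPT15 was 2.57 and 4.90, where they reached up to 3.45. For both, culture 1 lay within the chemostat range and culture 2 above it.

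Probe sets outside the single-gene rule also differed between day 20 and the chemostat. Of 1869 tested probe sets that the annotation used here names no gene for, 235 (12.6%) passed the limma threshold, 184 higher and 51 lower. Of 317 tested probe sets annotated to several genes, 56 (17.7%) passed, 17 higher and 39 lower. In the single-gene class 13.3% of probe sets passed.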

How the results depend on the processing

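The count of called genes moved by over 1.5 times under several alternatives, beside 753 (585 higher, 168 lower). With quantile scaling 422 genes were called, 199 of them higher, and with median scaling 500, of which 191 were higher and 309 lower. The 5 arrays of the 2 groups alone gave 1942 (1539 higher, 403 lower). Without the 3 arrays of high ACT1 ratio 301 were called (205 higher, 96 lower). Leaving out 1 array at a time gave 50 to 1069 calls, 32 to 853 higher and 18 to 216 lower, lowest without culture 2 of day 20 and highest without either day 16 array. Fits of the chemostat with 1 day 20 array alone, added after seeing the data, gave 241 calls for culture 1 (158 higher, 83 lower) and 1045 for culture 2 (757 higher, 288 lower). In these 2 fits the spread comes from the 3 chemostat arrays, and 227 genes were called in both, 1 of them in opposite directions. With the replicate number as a block, although numbers do not pair chemostat and retentostat, 601 genes were called (458 higher, 143 lower). Floors of 1 and 50, other probe-set rules, the trended prior and culture as a random block gave 672 to 831 calls. No gene called in the main comparison was called the opposite way under a setting with 1 value per gene; for every probe set on its own this was not counted. The causes of these shifts were not tested. Among the named genes, APC1 (-0.12) and POL2 (-0.24) changed sign when all probe sets of a gene were averaged. The 237 named genes gave 626 lost and 111 gained calls over all settings, and 4934 values on the same side. With 2 arrays a change of 1 log2 unit was mostly under the limit of detection in the simulation.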

Other observations

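Genes outside the lists made up part of the leave-one-out set, and the following were chosen after their values were seen. RNR3, the inducible large subunit of ribonucleotide reductase known from DNA damage, rose from 151.9, 113.1 and 123.9 to 705.4 and 997.7 (2.71 ± 0.26, limma adjusted p = 0.000902). NCA3, a cell wall protein of the SUN family, rose from 990.1, 938 and 1067 to 6176 and 5178 (2.50 ± 0.35, limma adjusted p = 0.00327). AGX1, which makes glycine from alanine and glyoxylate, rose from 282.9, 250.2 and 223.2 to 1102 and 1067 (2.11 ± 0.23, limma adjusted p = 0.00107), while GCV1, of the glycine cleavage system, fell from 2908, 2334 and 2676 to 463.1 and 627 (-2.29 ± 0.25, limma adjusted p = 0.00107). ATG39, the receptor for autophagy of the nuclear envelope, rose from 68.6, 54.5 and 55.4 to 314.3 and 264.9 (2.29 ± 0.25, limma adjusted p = 0.00107), and AGA1, the anchor of the mating agglutinin, from 474.3, 610.1 and 466.9 to 1786 and 1712 (1.77 ± 0.22, limma adjusted p = 0.00264). HES1, an oxysterol-binding protein, fell from 221, 205.7 and 222.2 to 30.3 and 47.6 (-2.51 ± 0.27, limma adjusted p = 0.00107), and ATO2, an ammonium and acetate transporter of the plasma membrane, from 1988, 1852 and 1680 to 370.8 and 367.8 (-2.31 ± 0.25, limma adjusted p = 0.00107). In these 8 genes, as in all called genes, both day 20 arrays lay beyond all 3 chemostat arrays.

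Of all probe sets other than controls, 3982_at parted the chemostat from the retentostat most widely. The annotation used here names no gene for it. It gave 0.5 to 0.6 on the 3 chemostat arrays, 5754 and 6264 on day 20, and between 5754 and 8628 on all 8 retentostat arrays, so that the gap was present from day 2 on. The probe sets next to it in number are annotated to the mitochondrial genes SCEI and COX2. What 3982_at itself reads was not tested, nor whether the chemostat and retentostat cultures are the same isolate. The next widest gap on the side of the retentostat was that of YER084W, with 10.6 to 15.3 in the chemostat and 44.7 to 128.5 in the retentostat. On the other side a probe set annotated to several genes, 3897_s_at, gave 54.0 to 72.2 in the chemostat and 0.3 to 8.1 in the retentostat. A pair of other probe sets of that class, 3762_s_at (1053, 704.3 and 1065, then 20.7 and 42.2) and 3718_s_at (5855, 5562 and 6374, then 397.4 and 132.2), had large falls on day 20. What these probe sets read was not analysed here.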
